A study of Mus musculus with 12 samples.

Results

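The 10 genes described here build fatty acids from glucose carbon or switch that pathway on. They are *Acly*, *Me1*, *Acaca*, *Acacb*, *Fasn*, *Elovl6*, *Scd2*, *Srebf1*, *Mlxipl* and *Thrsp*, matched by symbol among the 22923 genes that had a value in epididymal white adipose tissue (eWAT) of mice. The study asked how a leaf extract of chrysanthemum and its flavone luteolin act on lipid metabolism in diet-induced obesity. Male C57BL/6J mice were assigned to 4 diets at 5 weeks of age and were 21 weeks old after 16 weeks of feeding. At the end all of them had fasted for 12 h before anesthesia, so the values are not those of fed mice. The diets were a normal diet (ND), a high-fat diet (HFD), the HFD with an ethanol extract of chrysanthemum leaf (CLE) at 1.5% by weight and the HFD with luteolin (LU) at 0.003% by weight, so CLE and LU mice also ate the HFD. mRNA of 3 mice per group was sequenced from whole eWAT, in 1 library per mouse (12 libraries). *Scd1*, the main stearoyl-CoA desaturase of fat, was left out because it was listed at 0 in 9 libraries and at 8590 to 10200 FPKM in the 3 HFD libraries.

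In de novo lipogenesis, cytosolic citrate is cleaved to acetyl-CoA, acetyl-CoA is carboxylated to malonyl-CoA, and fatty acid synthase joins these units into palmitate. Palmitate is then elongated and desaturated, and the enzymes are induced together by insulin through SREBP-1c (*Srebf1*) and by glucose through ChREBP (*Mlxipl*). In white fat the pathway is active on carbohydrate-rich diets and is known to be low when dietary fat is plentiful.

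The promoters of 3 of these genes are shown because their RefSeq start sites can be set beside what was measured. The inner start of *Srebf1* carried most of its FPKM, and the *Acacb* window belongs to a start that carried little. The *Fasn* window lies at the annotated 5′ end of the gene (120824547). Its measured transcripts began no further upstream than 120824396, and the leading one, *Fasn*-201, began at 120824178. Each run is the 250 bases before the start, read 5′ to 3′ on the strand of the gene (GRCm38.p6). Capitals mark CCAAT (the NF-Y box), the E-box CATGTG and the GC box GGGCGG, each on either strand. The windows are *Srebf1* at chr11:60210472-60210721 (minus strand), *Fasn* at chr11:120824548-120824797 (minus strand) and *Acacb* at chr5:114165268-114165517 (plus strand).
Srebf1: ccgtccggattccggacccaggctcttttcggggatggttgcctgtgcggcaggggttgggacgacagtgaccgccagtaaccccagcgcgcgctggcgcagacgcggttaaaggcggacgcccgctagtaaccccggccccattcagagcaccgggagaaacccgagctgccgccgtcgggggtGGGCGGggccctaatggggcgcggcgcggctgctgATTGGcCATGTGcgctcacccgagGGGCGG
Fasn: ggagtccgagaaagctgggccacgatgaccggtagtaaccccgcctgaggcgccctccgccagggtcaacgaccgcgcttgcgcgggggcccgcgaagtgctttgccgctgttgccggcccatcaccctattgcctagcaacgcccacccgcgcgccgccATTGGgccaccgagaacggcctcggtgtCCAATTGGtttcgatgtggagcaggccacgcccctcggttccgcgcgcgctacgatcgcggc
Acacb: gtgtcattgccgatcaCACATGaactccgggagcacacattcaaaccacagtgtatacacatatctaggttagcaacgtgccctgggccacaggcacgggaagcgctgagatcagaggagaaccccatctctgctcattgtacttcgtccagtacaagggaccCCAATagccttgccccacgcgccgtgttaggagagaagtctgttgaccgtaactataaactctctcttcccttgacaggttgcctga
The *Srebf1* window held a CCAAT box on the opposite strand at −30, CATGTG at −24 and GGGCGG at −65 and −6, counted from the start to the first base of the match. In the *Fasn* window CCAAT stood at −90, −62 and −59, the last 2 overlapping on opposite strands. The *Acacb* window held CCAAT at −87 and CATGTG at −234. Windows of 300 bases around the start were found for 9 of the 10 genes, all but *Scd2*. Of these 13 windows, 8 held CCAAT, and they belonged to 7 genes. Of all 32851 windows of that length, 37.4% held CCAAT, 35.7% GGGCGG and 14.2% CATGTG. Such matches describe letters only, not binding.

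The values are FPKM (fragments scaled to transcript length and to the size of the library), summed over the transcripts of each gene from 107 rows of the deposited table. The 12766 genes with at least 1 FPKM in at least 3 libraries were tested, and all 10 members passed that filter. Groups were compared with limma on log2(FPKM + 1), and a gene counts as called where the fold change was over 1.5 and the p-value, adjusted by Benjamini-Hochberg over all tested genes, was under 0.05. On this scale the change of a weakly expressed gene such as *Elovl6* comes out too small. For any single gene, 3 mice against 3 cannot give a two-sided exact permutation p below 0.1. The depth behind the values is unknown.

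Before the members, the tissue was checked. All 14 adipocyte markers were present, and their summed FPKM was 46200 to 48700 in ND, 19900 to 22800 in HFD, 35900 to 42000 in CLE and 34000 to 41700 in LU. The 14 macrophage markers summed to 475 to 670 FPKM in ND, 3050 to 3590 in HFD, 773 to 1150 in CLE and 1210 to 1380 in LU. Of these 14, 13 were called higher in HFD than in ND, beside 14.9% of all tested genes. Skin keratins stood out in 2 libraries, with *Krt14* at 16.8 FPKM in HFD mouse 12 and 21.7 in CLE mouse 11 against at most 1.06 in the other 10. The same 2 libraries had the highest values of the muscle gene *Ckm* (1.43 and 5.29 FPKM). Liver *Alb* reached 19.8 FPKM in ND mouse 2 and 13.5 in CLE mouse 2. Liver *Apoa2* had 8.38 FPKM in ND mouse 2, 9.23 in CLE mouse 2, 4.7 in CLE mouse 11 and 4.56 in HFD mouse 12. *Fabp1* had 2.64, 3.62, 3.53 and 1.89 in the same mice. All other mice had at most 1.15 of *Apoa2* and 0.377 of *Fabp1*. The 9 epididymis and testis markers summed to 1.75 to 5.26 FPKM in ND and 0.0487 to 1.83 in HFD. In CLE they summed to 0 to 1.13 and in LU to 0.46 to 3.56. *Crisp1* was at 5.13 in ND mouse 4, and *Crisp4*, *Lcn5* and *Defb20* were at 0 in every library. The part of these other tissues in the results was not tested. The letter R, whose meaning the labels do not give, stands in 4 titles (LU mouse 2, CLE mouse 4 and ND mice 3 and 4). None of them is an HFD title, so the letter is not balanced over HFD against ND. ND mouse 4 was assigned to its column by inference from the column header. In whole tissue, fewer adipocytes and less RNA of a gene per adipocyte cannot be told apart.

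HFD against ND asked what the fat-rich diet alone did. *Acaca* and *Acacb* fell to 0.298 and 0.282 of their ND level on the scale of FPKM + 1, *Scd2* rose 5.22-fold, and the other 7 members were not called. Thus 3 of 10 members were called in HFD against ND (1 higher, 2 lower), where 25.6% of all tested genes were called (14.9% higher, 10.8% lower). Groups did not overlap for 4 members, and for 59.5% of all genes (30.2% higher, 29.3% lower). The estimates of 9 of the 10 were below 0, with a median log2 fold change of −0.40 against −0.02 over all genes. Some of these signs depended on single libraries. Over the 12 leave-one-out fits *Acly* ran from −0.43 to 0.10, *Elovl6* from −0.72 to 0.16 and *Me1* from −0.70 to −0.07.

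**Figure D1:**
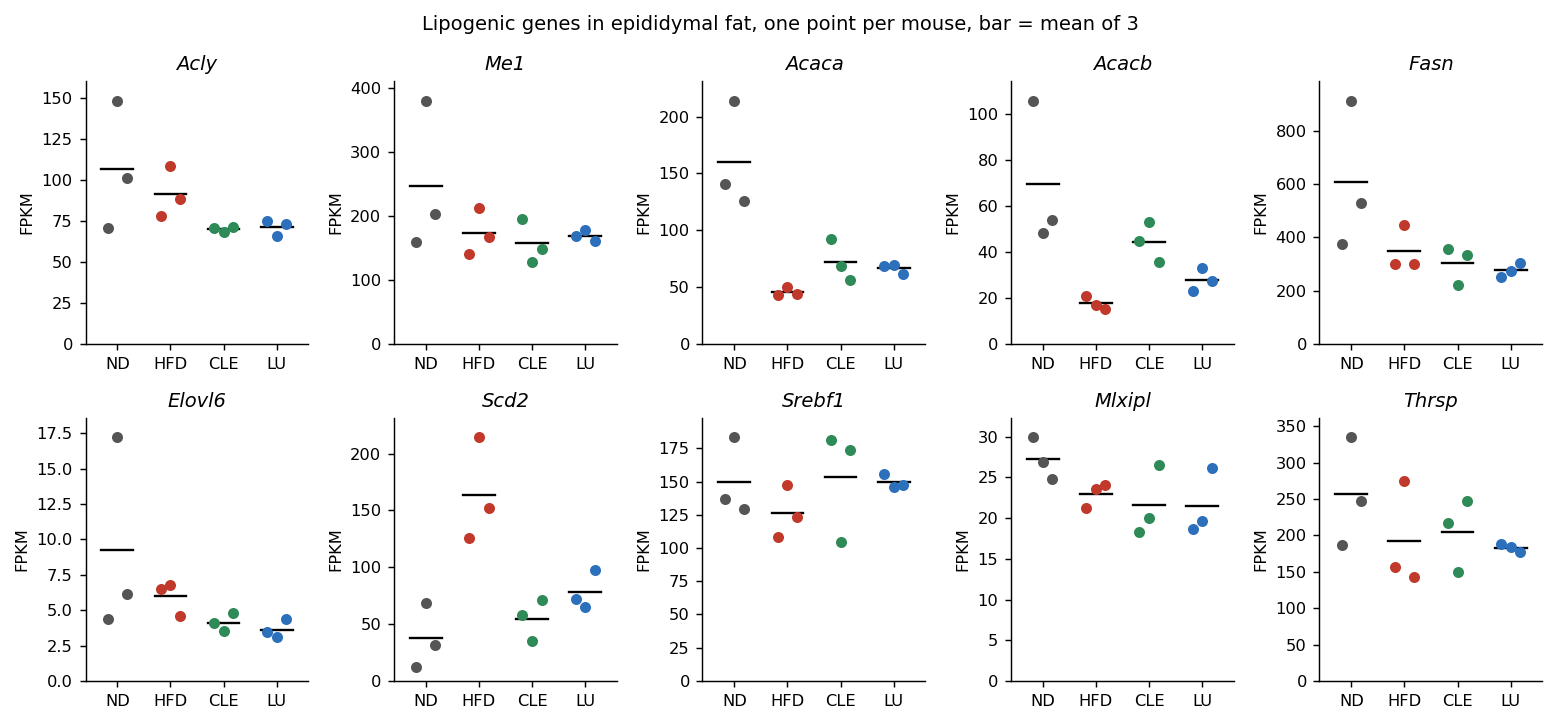
FPKM of the 10 genes (vertical axes start at 0), with 1 point per mouse in the ND, HFD, CLE and LU groups and a bar at the mean of 3 mice. The HFD mice sit below every ND mouse for *Acaca*, *Acacb* and *Mlxipl* and above every ND mouse for *Scd2*, while ND mouse 3 is the highest point for 7 of the 10 genes.

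*Acly* (chr11:100476353-100528000) encodes ATP citrate lyase, which makes cytosolic acetyl-CoA. Its FPKM was 70.6, 148 and 101 in ND, 77.8, 108 and 88.5 in HFD, 70.8, 68.5 and 71.4 in CLE, and 75.0, 65.9 and 72.9 in LU. ND and HFD overlapped fully, whereas every CLE and LU mouse lay below every HFD mouse. The log2 fold change was −0.17 (SE 0.21) for HFD against ND and −0.36 (SE 0.21) for CLE against HFD, with adjusted p of 0.53 and 0.21 in limma with Benjamini-Hochberg adjustment, so neither was called.

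*Me1* (chr9:86581371-86695953), malic enzyme, supplies NADPH for the reductive steps. It stood at 159, 380.0 and 204 FPKM in ND, 141, 212 and 167 in HFD, 196, 129 and 149 in CLE, and 169, 178 and 160.3 in LU. The groups overlapped throughout, and only ND mouse 3 stood clearly above the rest. HFD against ND gave −0.43 (SE 0.27) on the log2 scale and CLE against HFD −0.14 (SE 0.27), neither of them called. Of the windows of 50 bases in its leading transcript, 27.0% also occur in *Gm7049* or *Gm7329*, so reads could be shared with these copies.

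*Acaca* (chr11:84129672-84401651) encodes acetyl-CoA carboxylase 1, whose malonyl-CoA feeds fatty acid synthase. Its FPKM was 141, 214 and 126 in ND and 43.1, 50.5 and 44.4 in HFD. CLE mice had 92.2, 68.5 and 56.8 and LU mice 68.8, 70.0 and 61.3. No HFD mouse reached any CLE or LU mouse, and no mouse of either supplemented group reached an ND mouse. The group means were 160.4 ± 47.1 FPKM in ND, 46.0 ± 3.92 in HFD, 72.5 ± 18.1 in CLE and 66.7 ± 4.71 in LU (SD, n = 3 each). *Acaca* fell by 1.74 (SE 0.20) on the log2 scale in HFD against ND, with an adjusted p of 2.9e-05 in limma, and it stayed called without each of the 12 libraries in turn (−1.90 to −1.52).

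*Acacb* (chr5:114146535-114250761) encodes acetyl-CoA carboxylase 2 at the mitochondrial surface, whose malonyl-CoA restrains fatty acid entry for oxidation. It stood at 106, 48.3 and 54.0 FPKM in ND, 20.9, 17.1 and 15.4 in HFD, 44.9, 52.9 and 35.6 in CLE, and 23.0, 32.9 and 27.5 in LU. The order of the groups was ND, CLE, LU and HFD, where only ND and CLE overlapped. *Acacb* fell by 1.82 (SE 0.26) on the log2 scale in HFD against ND (adjusted p = 0.00016 in limma), and leaving out each library gave −2.04 to −1.48. ND mouse 2, the highest of the 12 for *Acacb*, was the lowest ND mouse for *Fasn*, *Scd2* and *Me1*. Per FPKM of *Acaca*, *Acacb* FPKM was 0.225 to 0.750 in ND, 0.338 to 0.486 in HFD, 0.487 to 0.773 in CLE and 0.335 to 0.470 in LU.

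The deposited rows resolve the carboxylases by transcript. *Acaca*-201, the leading coding transcript, starts at 84195438 and had 53.6 ± 15.6 FPKM in ND and 25.9 ± 1.15 in HFD (SD, n = 3). The 4 rows from the upstream start near 84173122 had 4.79, 28.5 and 5.61 FPKM in ND against 0.915, 1.48 and 0.651 in HFD. The 6 rows that start in the 3′ part of the gene, 5 of them assembled fragments and 1 a short annotated coding transcript, went from 61.4 ± 13.7 to 5.30 ± 2.37 FPKM, and every HFD mouse lay below every other mouse. At the *Acaca*-201 start, by contrast, HFD mice (25.2 to 27.2 FPKM) overlapped with CLE (24.7 to 42.3) and LU (23.7 to 35.2). With the highest transcript in place of the sum, *Acaca* gave −0.98 (SE 0.23), still called, with an adjusted p of 0.00627 in limma.

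In *Acaca*-201, 55.4% of the windows of 50 bases also occur in *Gm5182*, which had no row used here, so how its reads were assigned is uncertain. *Acacb* shared no such window with another gene. Its rows from the upstream start had 57.5, 20.2 and 19.9 FPKM in ND, 6.70, 10.7 and 5.46 in HFD, 21.5, 25.6 and 13.1 in CLE, and 9.62, 13.4 and 12.3 in LU. The inner start at 114165518, whose upstream sequence is printed above, had at most 6.79 FPKM in any mouse. For *Acacb* the highest transcript gave −1.86 (SE 0.39) in HFD against ND, close to the sum.

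**Figure D2:**
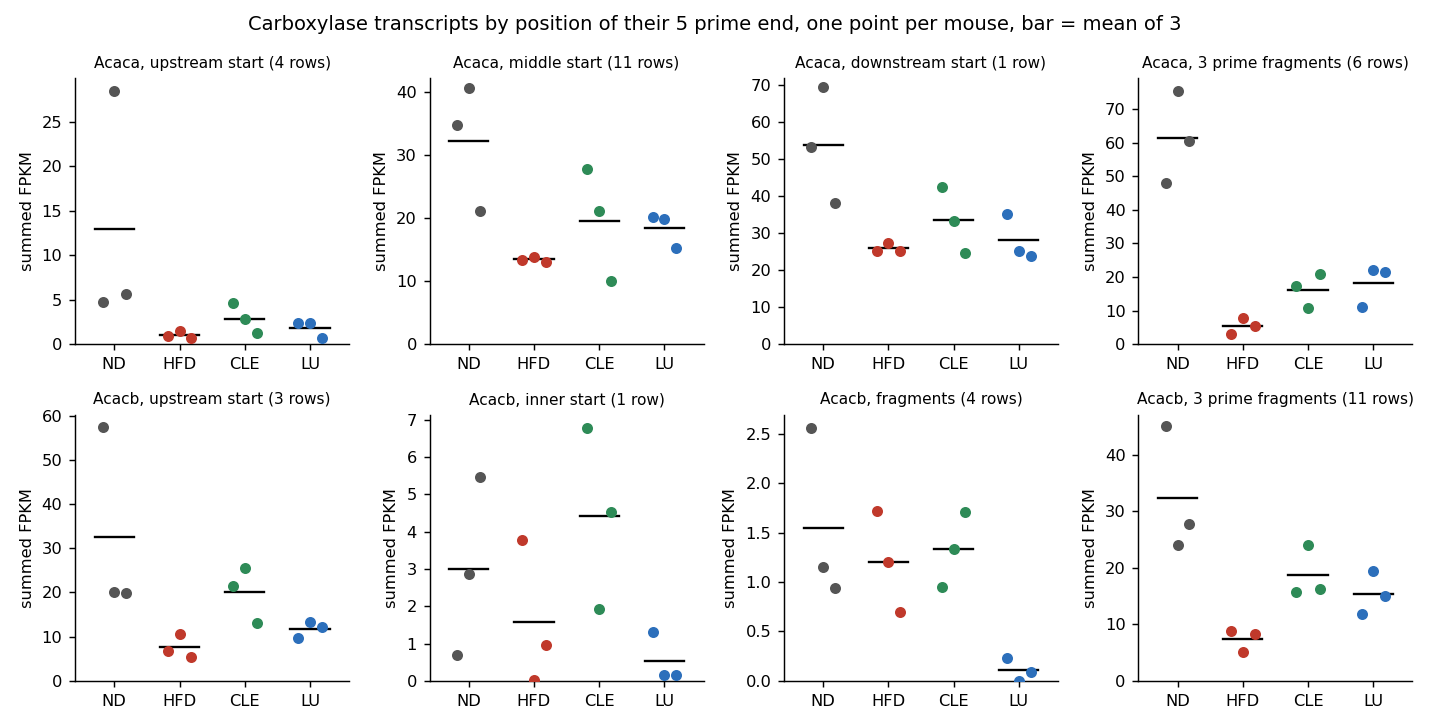
Summed FPKM of *Acaca* (top) and *Acacb* (bottom) rows grouped by where their 5′ end lies, with 1 point per mouse and a bar at the mean of 3; each panel has its own axis from 0. The HFD mice are below all others in the *Acaca* 3′ fragments and overlap with CLE and LU mice at the downstream start, and the 3′ fragments of *Acaca* fall from 61.4 FPKM in ND to 5.30 in HFD while the downstream start goes from 53.6 to 25.9.

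*Fasn* (chr11:120805846-120824547), fatty acid synthase, had the highest FPKM of the 10 genes in every library. Its values were 376, 913 and 529 in ND, 299, 445 and 301 in HFD, 357, 222 and 333 in CLE, and 251, 275 and 304 in LU. ND mouse 3 had more than any other mouse, while HFD mouse 15 lay above ND mouse 2. Group means were 606 ± 277 FPKM in ND, 348 ± 83.5 in HFD, 304 ± 72.1 in CLE and 277 ± 26.9 in LU (SD, n = 3). HFD against ND gave −0.73 (SE 0.29) with an adjusted p of 0.054 in limma, not called. It was called without ND mouse 2, without HFD mouse 15 and without CLE mouse 4, and over all 12 leave-one-out fits the estimate ran from −1.02 to −0.38. Its 4 rows from the full-length start had 378 ± 224 FPKM in ND and 247 ± 49.7 in HFD (SD, n = 3), whereas its retained-intron transcript had 54.8, 166 and 112 in ND and 14.9, 40.7 and 22.2 in HFD, without overlap.

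Set against the carboxylases, *Fasn* FPKM per *Acaca* FPKM was 2.67 to 4.26 in ND, 6.76 to 8.81 in HFD, 3.24 to 5.85 in CLE and 3.64 to 4.96 in LU. This ratio of gene sums was higher in every HFD mouse than in any other mouse. Between the leading transcripts, however, it was 4.0 to 9.09 in ND and 8.41 to 11.1 in HFD, which overlap. The separation of HFD from ND therefore depends on the summed rows. CLE (5.14 to 6.07) and LU (5.65 to 7.93) stayed below HFD between the leading transcripts. *Fasn* per *Acacb* FPKM also overlapped between ND (3.56 to 18.9) and HFD (14.3 to 26). CLE (4.19 to 9.34) and LU (8.36 to 11) lay below HFD on it. The difference between *Fasn* and the carboxylases was not tested. The tested gene outside the 10 whose profile was nearest to *Fasn*, by root mean square difference of centred log2 values over 12 libraries, was *Slc25a1* (0.198), the mitochondrial citrate carrier, followed by the transketolase *Tkt* (0.210) and by *Itga2b* (0.261). The spread of *Fasn* itself was 0.525 on that measure. The 3 nearest to *Acaca* were *Ppbp* (0.175), *Dennd2d* (0.194) and *2810459M11Rik* (0.203), and those to *Acacb* were *Asns* (0.250), *Sfxn1* (0.253) and *Klhl2* (0.262). *Scd2* had no near neighbour, with *Fgf13* (0.383), *Marc1* (0.393) and *Spc25* (0.435) the nearest against its own spread of 1.039.

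*Elovl6* (chr3:129532355-129638495), which elongates palmitate, was the lowest of the 10, at 4.35, 17.2 and 6.11 FPKM in ND, 6.50, 6.80 and 4.6 in HFD, 4.08, 3.50 and 4.80 in CLE, and 3.42, 3.07 and 4.4 in LU. Apart from ND mouse 3, all values lay under 7 FPKM, and only LU and HFD were without overlap. HFD against ND gave −0.36 (SE 0.35), not called.

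*Scd2* (chr19:44293674-44306864) encodes a stearoyl-CoA desaturase that many cell types express. It stood at 11.9, 68.4 and 31.8 FPKM in ND, 126, 214 and 152 in HFD, 57.7, 35.4 and 71.6 in CLE, and 71.9, 64.7 and 97.9 in LU. All HFD mice were above all other mice, and CLE and LU overlapped with ND mouse 3 and with each other. *Scd2* was higher in HFD than in ND by 2.38 (SE 0.48) on the log2 scale, with an adjusted p of 0.0017 in limma, and by 1.75 to 2.97 without each library in turn. *Scd2* moved with the macrophage markers listed above, whose summed FPKM was also highest in HFD, and their part in its change was not tested. Of the windows of 50 bases in its transcript, 4.01% occur in other genes, most of them *Scd1*. *Scd3* and *Scd4* were at most 0.490 FPKM. *Scd1* was listed at 8590 to 10200 FPKM in the HFD libraries, where *Scd2* was highest, and at 0 in every ND, CLE and LU library. Whether reads of *Scd1* added to the *Scd2* values was not tested.

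*Srebf1* (chr11:60199089-60222581), the gene of SREBP-1, had 137, 183 and 129 FPKM in ND, 108, 148 and 123 in HFD, 181, 105 and 174 in CLE, and 155, 146 and 148 in LU. Every pair of groups overlapped, and the 3 LU mice all lay within the ND range. HFD against ND gave −0.24 (SE 0.20), not called. Rows from the inner start, whose promoter carries the marked boxes, summed to 97.7 ± 20.1 FPKM in ND, 78.8 ± 14.4 in HFD, 104 ± 34 in CLE and 93.8 ± 3.06 in LU. Rows from the upstream starts gave 19.3 ± 2.73, 20.1 ± 1.46, 20.1 ± 2.93 and 21.6 ± 2.10 FPKM in the same order (SD, n = 3). The inner start corresponds to SREBP-1c, the lipogenic form.

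*Mlxipl* (chr5:135089890-135138382), the gene of ChREBP, varied least of the 10. Its FPKM was 29.9, 26.9 and 24.8 in ND, 21.2, 23.6 and 24.1 in HFD, 18.3, 20.0 and 26.6 in CLE, and 18.6, 19.7 and 26.1 in LU. The ND mice lay above all HFD mice by a narrow margin, and the log2 fold change of −0.23 (SE 0.15) was not called. Its leading transcript, *Mlxipl*-206, is annotated for nonsense-mediated decay. That row had 9.03, 9.51 and 9.29 FPKM in ND and 5.93, 6.94 and 5.85 in HFD. The coding transcript *Mlxipl*-201 had 4.44, 3.30 and 4.45 in ND and 3.59, 4.04 and 3.96 in HFD, which overlap. No row of the table began at the upstream first exon, 17001 bases before the first start that was measured, from which 1 of the 10 annotated transcripts begins. That transcript is therefore not analysed here.

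*Thrsp* (chr7:97412938-97417730), or Spot 14, a lipogenic partner of fatty acid synthesis, had 187, 335 and 247 FPKM in ND, 157, 275 and 143 in HFD, 217, 149 and 247 in CLE, and 189, 185 and 177 in LU. HFD mouse 15 lay inside the ND range, every pair of groups overlapped, and the LU mice lay closest together (SD 6.16). HFD against ND gave −0.44 (SE 0.27), not called.

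Mice within a group differed in several members at once. ND mouse 3 was the highest ND mouse for 8 of the 10 genes, where it was highest for 30.6% of all tested genes. HFD mouse 15 was the highest HFD mouse for 8 of the 10, against 31.4% of all genes, and CLE mouse 4 the lowest CLE mouse for 7 of the 10, against 26.2%. The nearest pair of members was *Acly* with *Me1*, which differed by 0.198 (root mean square of centred log2 values), and *Fasn* with *Me1* and with *Elovl6* differed by 0.245 and 0.248. These profiles share their libraries, so they describe the 12 mice only.

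The question of CLE against HFD was whether the extract altered the HFD pattern. *Acaca* and *Acacb* were higher with CLE and *Scd2* was lower, so 3 of 10 members were called (2 higher, 1 lower), beside 16.5% of all tested genes (6.33% higher, 10.2% lower). Groups did not overlap for 4 members, and 50.6% of all genes were without overlap (24.4% higher, 26.2% lower). *Acacb* rose by 1.27 (SE 0.26), or 2.40-fold (95% interval 1.62 to 3.57), with an adjusted p of 0.0033 in limma, and remained called without each library in turn (1.13 to 1.41). *Acaca* rose by 0.62 (SE 0.20; adjusted p = 0.032 in limma), a call lost without HFD mouse 12, HFD mouse 18, CLE mouse 2 or CLE mouse 4 (0.43 to 0.78 over the 12 fits). *Scd2* fell by 1.58 (SE 0.48; adjusted p = 0.026 in limma), a call lost without HFD mouse 15, HFD mouse 18, CLE mouse 2 or CLE mouse 4 (−1.80 to −1.30).

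With the highest *Acaca* transcript in place of the sum, CLE against HFD gave 0.32 (SE 0.23), not called. Without the 2 libraries with keratins, the same 3 genes were called, *Acaca* at 0.73, *Acacb* at 1.53 and *Scd2* at −1.97. The remaining 7 estimates lay between −0.44 (*Elovl6*) and 0.24 (*Srebf1*). For *Fasn* the estimate was −0.20, with a 95% interval of −0.83 to 0.43.

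For LU against HFD no member was called (0 of 10, with 12.4% of all genes called, 4.79% higher and 7.65% lower), and 2 had an unadjusted p under 0.05 in limma. *Acaca* differed by 0.53 (95% interval 0.09 to 0.96; adjusted p = 0.069 in limma), *Acacb* by 0.61 (0.04 to 1.18) and *Scd2* by −1.05 (−2.11 to 0.01). The LU mice were nevertheless apart from the HFD mice for 5 genes: higher for *Acaca* and *Acacb*, and lower for *Acly*, *Elovl6* and *Scd2*, where 47.7% of all genes were without overlap (25.6% higher, 22.1% lower). Without the libraries with the letter R, *Acacb* was called higher (0.74) and *Scd2* lower (−1.0).

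CLE and LU were compared directly. No member was called (0 of 10, 1 with an unadjusted p under 0.05), and 1 of the 12766 tested genes was, or 0.00783%. *Acacb* was the 1 member without overlap (9.03% of all genes, 2.69% higher and 6.34% lower), higher with CLE in each of 3 mice by 0.65 (95% interval 0.08 to 1.22; adjusted p = 0.89 in limma). The *Acaca* difference was 0.09 (−0.34 to 0.53), the *Fasn* difference 0.11 (−0.52 to 0.74) and the *Scd2* difference −0.54 (−1.60 to 0.52), intervals that leave room for differences of over 1.5-fold in *Fasn* and *Scd2*.

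**Figure D3:**
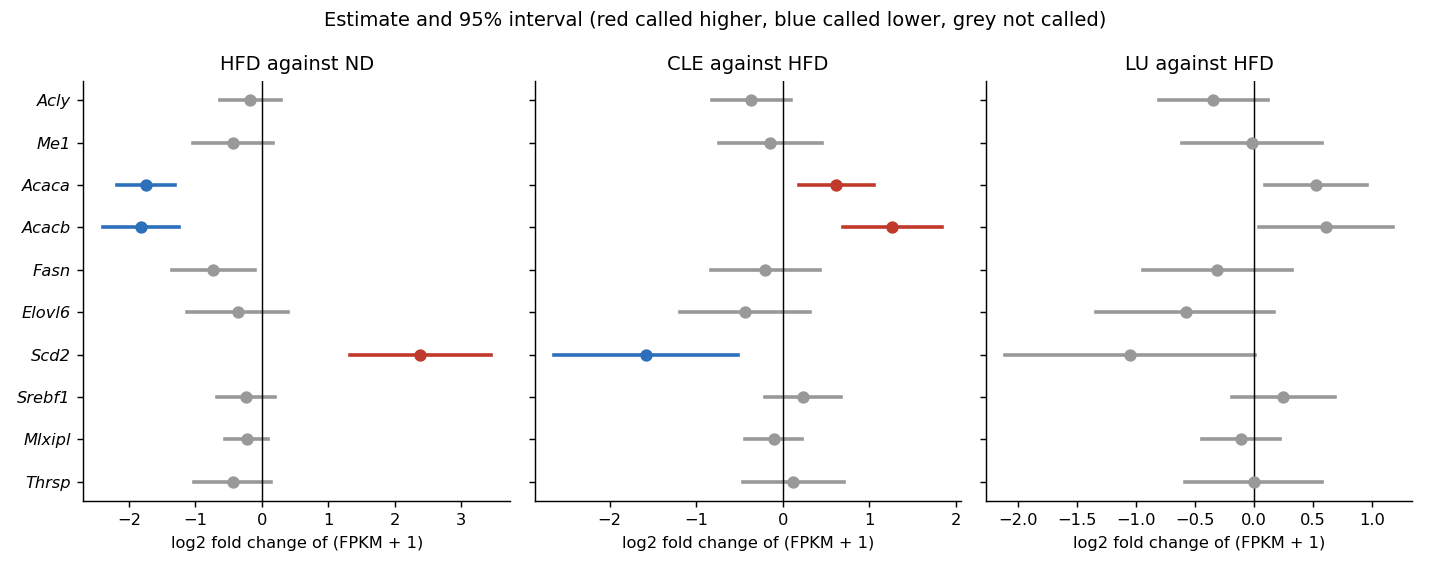
Log2 fold change of (FPKM + 1) with its 95% interval for each of the 10 genes, in HFD against ND, CLE against HFD and LU against HFD; red and blue mark genes called higher and lower. *Acaca*, *Acacb* and *Scd2* are the called genes of the first 2 panels, with estimates of −1.74, −1.82 and 2.38 and of 0.62, 1.27 and −1.58, and none is called in the third.

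Against ND, the supplemented groups were compared for what remained of the diet difference. In CLE, *Acaca* was the 1 member called (2.92% of all genes, 2.07% higher and 0.854% lower), at −1.12 (SE 0.20; adjusted p = 0.015 in limma). This call was lost in the fit of the 2 groups alone, with the highest transcript (−0.66), with annotated transcripts only (−0.82), without the 4 libraries with the letter R (−0.95) and without the 2 keratin libraries (−0.97). *Acacb* gave −0.56 (95% interval −1.13 to 0.01), *Fasn* −0.93 (−1.55 to −0.30) and *Scd2* 0.80 (−0.26 to 1.86), none of them called, and 2 members (*Acaca* and *Fasn*) were without overlap beside 24.7% of all genes (13.2% higher, 11.5% lower).

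In LU, 3 members were lower than in ND (6.60% of all genes called, 4.97% higher and 1.62% lower): *Acaca* at −1.22 (SE 0.20; adjusted p = 0.0034), *Acacb* at −1.21 (SE 0.26; adjusted p = 0.012) and *Fasn* at −1.04 (SE 0.29; adjusted p = 0.037), all in limma. The same 3 were the members without overlap (30.1% of all genes, 18.5% higher and 11.6% lower). The *Fasn* call was lost without ND mouse 3, ND mouse 4 or any 1 of the 3 LU mice, and those of *Acaca* and *Acacb* stood without each library. With the highest transcript, *Acaca* alone was called, and with annotated transcripts only, *Acacb* alone. Without ND mouse 2, *Acly* and *Elovl6* were called lower as well, and without ND mouse 3, *Scd2* was called higher. *Srebf1* was at 0.01 (95% interval −0.43 to 0.45) both in CLE and in LU against ND.

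Since the adipocyte markers moved with diet, the members were set against them. The 14 markers had a median log2 fold change of −0.88 in HFD against ND (12 called lower), 0.74 in CLE against HFD (12 called higher) and 0.62 in LU against HFD (8 called higher). Of all tested genes, 10.8% were called lower in the first contrast, 6.33% higher in the second and 4.79% higher in the third. *Adipoq* and *Plin1* changed by −0.84 and −0.83 in HFD. *Acaca* and *Acacb* thus fell further than the median marker, while *Acly*, *Srebf1* and *Mlxipl* had estimates nearer 0. *Cfd* (−3.52), *Adrb3* (−2.73) and *Retn* (−2.36) fell further than either carboxylase.

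Scaling each library to these markers moved the median of all genes by 1.14 in HFD against ND and by −0.82 in CLE against HFD. On that scale *Acly* stood at 1.11, *Srebf1* at 1.04, *Mlxipl* at 1.01, *Me1* at 0.85, *Thrsp* at 0.84 and *Elovl6* at 0.76, and *Scd2* was also called, all higher in HFD than in ND. *Acaca* and *Acacb* were no longer called on it. With the median marker in place of the mean, a choice made after seeing the data, *Acaca* at −0.79 and *Acacb* at −0.89 were called lower. Relative to the median of all genes on the scale of the mean, *Acly* was at −0.01, *Acaca* at −1.59, *Acacb* at −1.70 and *Scd2* at 2.52 in HFD against ND. In CLE against HFD *Acaca* was at 0.53, *Acacb* at 1.20 and *Scd2* at −1.68 relative to that median.

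**Figure D4:**
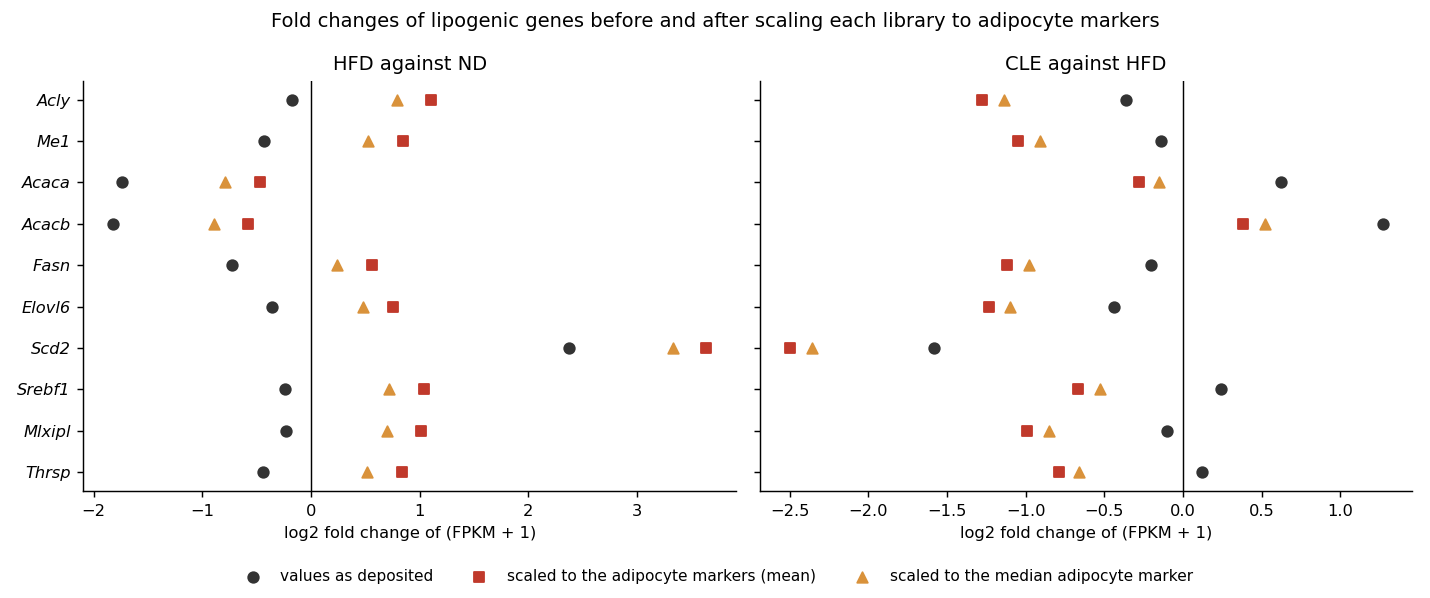
Log2 fold change of (FPKM + 1) for the 10 genes in HFD against ND (left) and CLE against HFD (right), with the values as deposited (circles) and after scaling each library to the mean (squares) or the median (triangles) of the adipocyte markers. Scaling to the mean moves *Acly* from −0.17 to 1.11 and *Acaca* from −1.74 to −0.47 in HFD against ND, and moves *Acaca* from 0.62 to −0.28 in CLE against HFD, where the median of all genes moves by −0.82.

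Other genes of the pathway are given by list, beside the 25.6% of all tested genes called in HFD against ND (14.9% higher, 10.8% lower), the 16.5% in CLE against HFD (6.33% higher, 10.2% lower) and the 12.4% in LU against HFD (4.79% higher, 7.65% lower). Of the 23 tested genes of fatty acid synthesis, export and processing outside the 10, 4 were higher and 4 lower in HFD than in ND. *Slc25a1*, which exports citrate for *Acly*, fell by 0.85 (SE 0.22) on the log2 scale and was lower than in ND in CLE (−0.88) and in LU (−0.87) as well. Its mean was 185 ± 56.3 FPKM in ND and 100.1 ± 14.3 in HFD (SD, n = 3), and every HFD mouse lay below every ND mouse. The mitochondrial malonyl transferase *Mcat* (−0.82) and *Hacd1* (−0.65) were the next lowest, and the thioesterase *Acot11* (1.41), the NADPH-producing *Idh1* (0.97) and the elongase *Elovl1* (0.77) were the highest. In CLE against HFD, *Acot11* (−1.14), *Idh1* (−0.92) and *Elovl1* (−0.60) were the 3 called, all lower. *Acot11* and *Idh1* were the 2 called in LU against HFD, at −0.91 and −0.61. *G6pdx*, which opens the pentose phosphate path, was higher in HFD by 0.71.

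Among 25 regulators, 2 rose and 6 fell in HFD against ND, where 25.6% of all genes were called. *Insig1*, which holds SREBP in the endoplasmic reticulum, rose by 1.83 (SE 0.32), from 55.4, 47.6 and 52.2 FPKM in ND to 141, 253 and 180.2 in HFD, and *Srebf2* rose by 0.69. The insulin receptor substrate *Irs1* (−1.16), the insulin receptor *Insr* (−1.02) and *Insig2* (−0.92) fell the most. In CLE against HFD, where 16.5% of all genes were called, 4 were higher, led by *Insig2* (0.98), *Irs2* (0.93) and *Insr* (0.73), and *Insig1* (−1.36) and *Srebf2* (−0.69) were lower. In LU against HFD, *Irs2* (0.73) and *Insig2* (0.72) were higher and *Insig1* lower (−1.10). *Nr1h3*, the gene of LXRα, which activates *Srebf1*, gave −0.11 in HFD against ND (adjusted p = 0.28 in limma) and was not called. *Pparg* gave −0.44 in HFD against ND, 0.44 in CLE against HFD and 0.42 in LU against HFD. Its adjusted p in limma was 0.016, 0.024 and 0.039 in the same order. *Pparg* was not called in these contrasts because its changes stayed under the fold-change limit.

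Upstream, where 14.9% of all genes were higher and 10.8% lower in HFD, 3 of 24 genes from glucose to acetyl-CoA were higher, namely the pyruvate kinase *Pkm* (0.76), *Tpi1* (0.68) and *Hk1* (0.67), and 5 were lower, led by the kinase *Pdk2* (−1.38), the mitochondrial pyruvate carrier *Mpc1* (−1.24) and the dehydrogenase subunit *Pdha1* (−0.92). *Pdk2* was higher (1.04) and *Pkm* lower (−0.82) in CLE against HFD, and the same 2 were called in LU against HFD (0.82 and −0.73). Of 15 genes of triglyceride synthesis, 3 were higher in HFD, *Gpd1* (0.88), *Lpin2* (0.76) and *Dgat2* (0.73), and 5 lower, led by *Pck1* (−2.36), *Mogat1* (−2.36) and *Gpat3* (−1.49). *Pck1* (1.94), *Mogat1* (1.54) and *Gpat3* (1.35) led the 4 higher in CLE against HFD, and *Gpd1* (−0.90) was lower. The same 3 were the ones higher in LU against HFD (1.59, 1.14 and 1.04), with *Gpd1* lower (−0.93).

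The cholesterol pathway, which shares the SREBP system, went with *Scd2* in direction. Of 18 tested genes, 7 were higher and 0 lower in HFD than in ND, with a median of 0.53 against −0.02 over all genes. Among them was *Dhcr7* (1.86), which acts late in cholesterol synthesis. In CLE against HFD 8 were lower and 0 higher (median −0.55), *Dhcr7* among them (−1.52), and in LU against HFD 7 were lower (median −0.51), again with *Dhcr7* (−1.21). These contrasts share the HFD mice. In CLE against LU, no gene of these 5 lists was called, beside 0.00783% of all genes. Against ND, the 5 lists held 1 called higher and 3 called lower in CLE, where 2.07% of all genes were higher and 0.854% lower. In LU they held 1 higher and 6 lower, where 4.97% of all genes were higher and 1.62% lower.

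**Figure D5:**
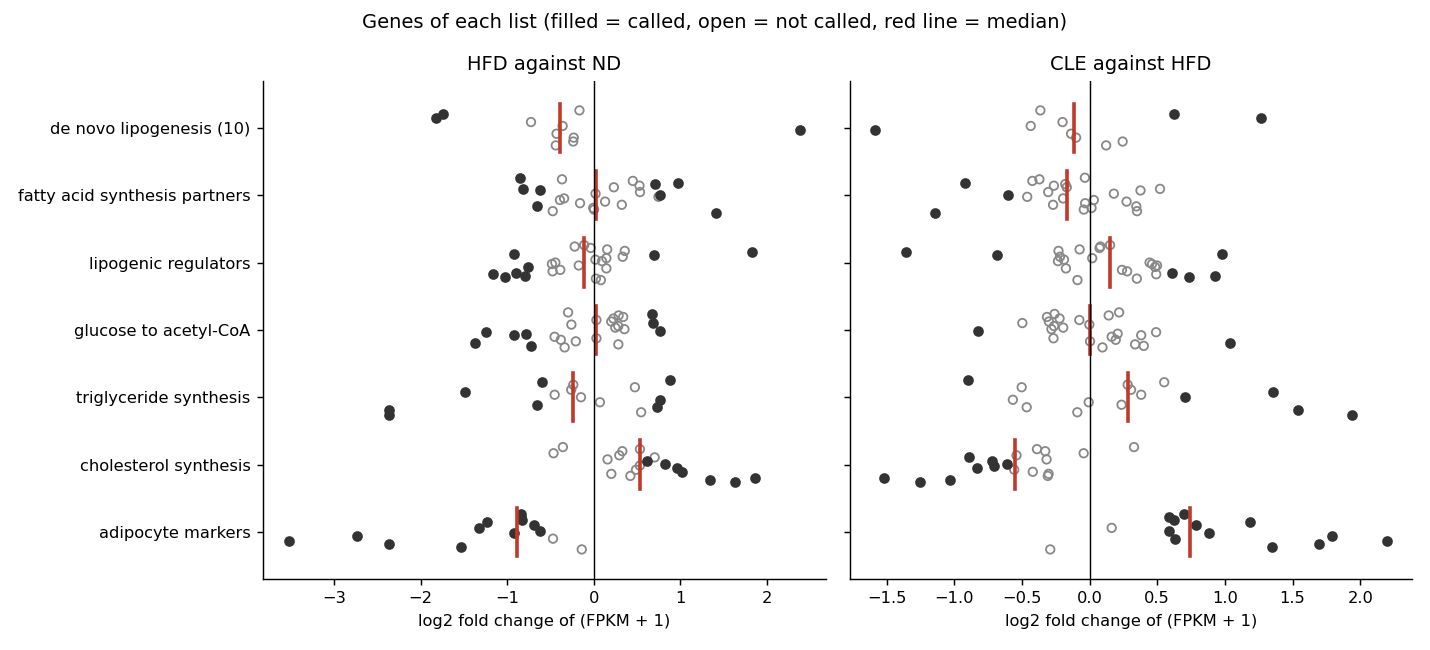
Log2 fold change of (FPKM + 1) in HFD against ND (left) and CLE against HFD (right) for each gene of the 10, of the 5 pathway lists and of the adipocyte markers; filled points are called, open points are not, and a red line marks the list's median. The medians of the cholesterol list are 0.53 and −0.55, those of the adipocyte markers −0.88 and 0.74, and those of the 10 genes −0.40 and −0.12.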

How the data were processed

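Groups were taken from the diet in the sample labels and mouse numbers from the titles. The authors sequenced paired-end TruSeq libraries on a HiSeq2500 and quantified them with Cuffdiff, and the processing notes of the submitters name CASAVA 1.8.2, TopHat2 2.0.12, Bowtie2 2.2.3 and Cufflinks 2.2.1. They deposited FPKM for 152210 known and newly assembled transcripts in 15 columns. Since 3 of these belong to no sample listed here, they were left aside. A further 4 columns mark the authors' own calls between groups and were not used. The ND mouse 4 column is headed MD4 and was assigned by inference.

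Known transcripts and assembled ones with an Ensembl match (class codes = and j) were joined to GENCODE M21 (GRCm38), where 77000 of 78786 known transcripts were found, and were summed per gene, so that fragments of a gene add to its FPKM. R 4.3.3 and limma 3.58.1 gave the test: 1 fit of log2(FPKM + 1) over the 12 libraries, with a mean per group, no covariate, empirical Bayes moderation and Benjamini-Hochberg adjustment over 12766 genes. The table holds no counts, so the count test of the methods was not repeated. The p-values measure the spread between the sequenced mice, which the paper calls representative of each group without saying how they were picked. The spread over all mice of a group is not known from them. Python 3.11.15 with numpy 2.4.6, pandas 2.3.3 and, for plots, matplotlib 3.10.9 did the rest.

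The 10 genes, the pathway and marker lists and the alternatives were chosen with earlier results of these data known. Named from the 5 pathway lists are the 3 largest called rises and falls per contrast, with *Nr1h3*, *Pparg*, *Insig1*, *Slc25a1* and *Scd1* in any case. Some genes that this rule names are not reported here. *G6pdx*, *Tkt* and the other nearest profiles, and the marker genes, were named after their values were seen or by the nearest-profile rule. Alternatives changed the filter (none, or a mean of 5 FPKM), the pseudocount (0.1), the scaling (median ratio, quantile or adipocyte markers), the moderation (trend and robust), the threshold (adjusted p alone) and the gene value (highest transcript, annotated transcripts only), fitted the 2 groups alone, added the letter R or a replicate block as a term, and left out each library. Those without the letter R libraries, without the keratin libraries (*Krt14* of at least 10 FPKM) and with the median adipocyte marker were added after seeing the data. Promoter windows are those of RefSeq.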

Additional observations from a re-analysis of the deposited data

How the results depend on the processing

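Of the main results, the fall of *Acaca* and *Acacb* and the rise of *Scd2* in HFD against ND, and the rise of *Acacb* in CLE against HFD, kept their call in all 12 leave-one-out fits. Counts of the 10 genes called that moved by over 1.5 times were as follows. Without 1 library at a time they ran from 3 to 5 in HFD against ND (5 without ND mouse 2 or HFD mouse 15), from 1 to 3 in CLE against HFD (1 without HFD mouse 18, CLE mouse 2 or CLE mouse 4), from 0 to 2 in LU against HFD (2 without ND mouse 2, 1 without ND mouse 3) and from 2 to 5 in LU against ND (5 without ND mouse 2). Scaling to the adipocyte markers gave 7 in HFD against ND (7 higher), 8 in CLE against HFD (8 lower) and 7 in LU against HFD (7 lower), and the median marker gave 6, 7 and 6. By construction such a scaling shifts every gene of a library. On the scale of the marker mean, the median of all genes stood at 1.12, −0.82 and −0.67 in these 3 contrasts. The counts on it are therefore not read as a result about the members. The share of all genes called in each alternative fit is not given here. Without the filter CLE against HFD had 1. The fit of the 2 groups alone gave 2 in LU against HFD and 0 in CLE against ND. Without the libraries with the letter R these were 2 and 2, with ND left at 1 mouse that was assumed to vary like the other groups. Without the keratin libraries CLE against ND had 0, and with annotated transcripts only it had 0 and LU against ND 1. The highest transcript gave 1 in LU against ND. Smaller moves also changed calls: *Fasn* was called in HFD against ND with trend and robust moderation (4 genes), *Acaca* was lost in CLE against HFD with the letter R as a covariate, without the libraries that carry it, with the highest transcript and with annotated transcripts only (2 each), and *Fasn* was lost in LU against ND with that covariate, without the filter, in the fit of the 2 groups alone and without the keratin libraries (2 each). Where not stated above, the cause was not tested.

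These scalings moved the median of all genes by 1.14 (mean) and 0.85 (median marker) in HFD against ND and by −0.82 and −0.69 in CLE against HFD. Log2 fold changes changed sign under scaling to the marker mean in HFD against ND for *Fasn* (0.56), *Acly* (1.11), *Elovl6* (0.76), *Me1* (0.85), *Mlxipl* (1.01), *Srebf1* (1.04) and *Thrsp* (0.84), and in CLE against HFD for *Acaca* (−0.28), *Srebf1* (−0.67) and *Thrsp* (−0.79). Under the median marker they did so for *Acly* (0.79), *Mlxipl* (0.70), *Srebf1* (0.72), *Fasn* (0.24), *Elovl6* (0.48), *Me1* (0.53) and *Thrsp* (0.52) in HFD against ND, the last 4 not called, and for *Acaca* (−0.15), *Srebf1* (−0.53) and *Thrsp* (−0.66) in CLE against HFD. In LU against HFD, signs changed under the marker mean for *Acaca* (−0.24), *Acacb* (−0.14) and *Srebf1* (−0.53). Under the median marker they changed there for *Acaca* (−0.05) and *Srebf1* (−0.34), while *Acacb* stood at 0.05. The median of all genes moved by −0.7 (mean) and −0.53 (median marker) in that contrast.

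With mouse number as a replicate block, 0 of the 10 were called in CLE against ND and 0 in LU against ND, where *Acaca* gave −0.74 and −1.31. The groups share 2 numbers per pair, the labels tie nothing to a number, and deviations of same-numbered mice correlated between −0.10 and 0.19, so the mice share only a number. No paired analysis was possible because in the other contrasts HFD shares no number with any group, and CLE and LU share only 1.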
